A study of Mus musculus with 3 samples.

Results

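The 10 genes described here mark the endothelium of embryonic blood vessels. They were chosen by symbol, and all 10 were found among the 24062 gene symbols of the count tables. Receptors are encoded by 6 of them (*Kdr*, *Flt1*, *Flt4*, *Tek*, *Tie1* and *Eng*), another group holds the surface and junction genes *Pecam1*, *Cdh5* and *Emcn*, and *Erg* encodes a transcription factor. The RNA came from rostrums, which are the front of the head, of *tuft* embryos and of wild-type embryos, both on the 3H1 Balb strain and both at E9 (18 to 22 somites). The *tuft* embryos were homozygous (tuft/tuft) for a spontaneous nonsense mutation in *Tet1*, which encodes a methylcytosine dioxygenase, and presented neural tube defects, so that genotype and defect cannot be told apart. RNA was pooled from 3 embryos for a library, and there is 1 column of counts per genotype, so that no value has a replicate error and no test was possible. The 1 *tuft* column stands for 2 *tuft* samples in the records, and it could hold either of them or both together. The columns are called the wild-type and the *tuft* library here, and all differences are between these 2 columns.

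The vessels of the head form when angioblasts assemble into a plexus that then sprouts and is remodeled. VEGF ligands, made largely by the surrounding tissue, act on receptor tyrosine kinases of endothelial cells: KDR (VEGFR2) carries most of the growth signal, FLT1 (VEGFR1) binds VEGF-A tightly and limits it, and FLT4 (VEGFR3) is the receptor of VEGF-C in veins and lymphatic vessels. The angiopoietin receptor TEK (TIE2) and its partner TIE1 act in remodeling and stability, and endoglin (ENG) is a co-receptor for BMP9 and BMP10. CDH5 (VE-cadherin) and PECAM1 hold endothelial cells together, endomucin (EMCN) is a sialomucin of their surface, and ERG, an ETS factor, activates many endothelial genes including *Cdh5*.

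The deposited values were raw counts of reads per gene, 14251942 in wild type and 6433067 in *tuft*, and a count of 0 allows up to 3 counts, which is 0.210 CPM (counts scaled to a library total of 1000000) in wild type and 0.466 CPM in *tuft*. The *tuft* library also had fewer genes with a count, 11795 against 16914 in wild type, and a smaller share of its entries on genes, 27.4% against 37.3%. The part of this gap in the genes without a *tuft* count was not tested. Fold changes are *tuft* over wild type after TMM normalization (a trimmed mean of log ratios over all genes) and carry a 95% Clopper-Pearson interval, which covers counting error only. A gene was called when it differed by at least 2-fold and this interval left out 1. *Tet1* itself had 435 counts in wild type and 32 in *tuft*, 0.214-fold (0.145 to 0.307). Tissues of the head were represented in both libraries, since all of 8 neuroectoderm markers (summed level 935 CPM in wild type, 1055 CPM in *tuft*, 2 higher), 8 markers of head mesenchyme and neural crest (365 and 553 CPM, 1 lower and 2 higher) and 7 of surface ectoderm (628 and 813 CPM, 1 lower and 1 higher) were counted in each. When scaling used library totals alone, 2 of the neuroectoderm and 3 of the mesenchyme and crest markers were lower.

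Of the 10 endothelial genes, 7 were lower in the *tuft* library (*Kdr*, *Flt4*, *Tek*, *Eng*, *Pecam1*, *Cdh5* and *Erg*, among them 4 of the 6 receptors), 1 was higher (*Emcn*) and 2 were not called (*Flt1* and *Tie1*). In the background of 13979 genes that had 10 or more counts over both libraries (the genes tested), which include all 10, 37.3% were called lower and 21.2% higher, and among the 7895 genes within the range of wild-type CPM of the 10 genes the shares were 36.6% and 22.6%. The median log2 fold change of the 10 genes was -1.38, against -0.45 for all genes tested and -0.25 in that range of CPM. Together the 10 genes held 6224 counts in wild type (437 CPM) and 893 in *tuft* (139 CPM), a fold change of 0.418 (0.389 to 0.448). Lower calls made up 63.7% of all calls under TMM and 74.4% when scaling used library totals alone, which shifted the median of all genes by -0.39. With that scaling 6392 genes were lower and 2203 higher, against 5215 and 2966 under TMM, and among the genes of the 16 lists described below 59 were lower and 26 higher, against 44 and 36. Without *Emcn* the fold change of the sum was 0.333 (0.307 to 0.360). In a bulk tissue, fewer endothelial cells and less RNA per endothelial cell cannot be told apart.

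**Figure D1:**
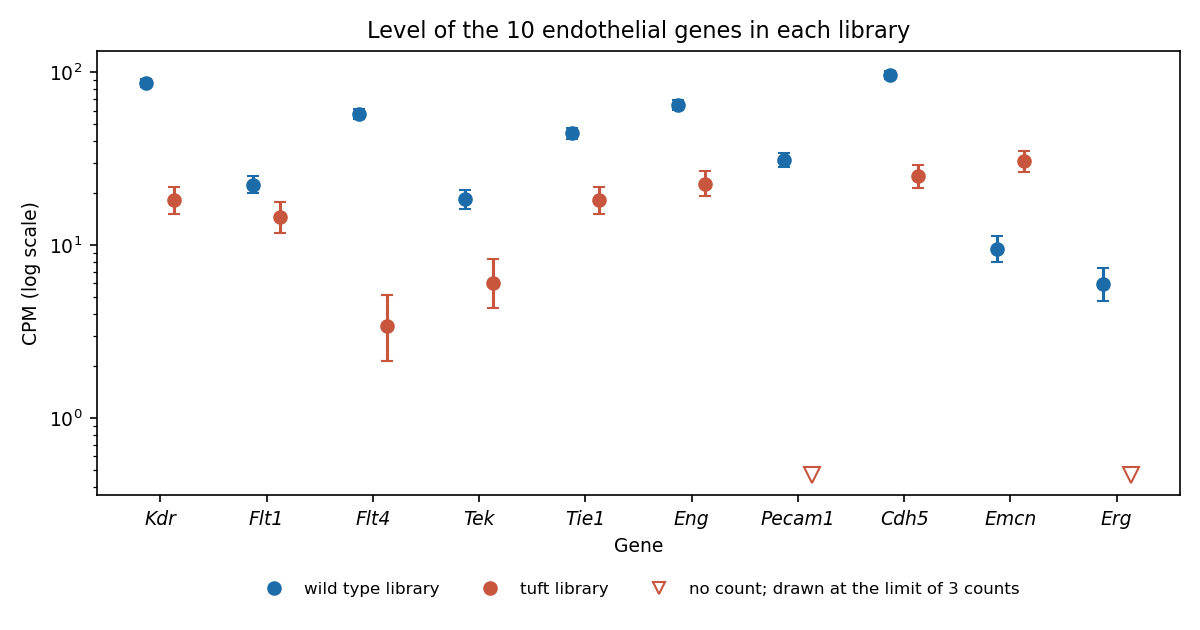
Level of each gene in CPM (log scale) in the wild-type and the *tuft* library, 1 column of counts each, with 95% counting intervals. *Emcn* is the gene that lies higher in *tuft* (30.6 against 9.54 CPM), and *Pecam1* and *Erg*, without a count in *tuft*, are drawn at the limit of 3 counts (0.466 CPM).

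The mutated enzyme acts on methylated cytosine in CpG dinucleotides, and the windows around the start sites of these genes differ widely in CpG. RefSeq windows (GRCm38.p6, 250 bases before to 50 after a start site) were found for 8 of the 10 genes, with 3 windows for *Erg*. A start site need not be the outer end of the gene position given below. The windows of *Flt1* and *Kdr* lie wholly within those positions. Windows are shown 5′ to 3′ on the strand of the gene, with CpG in capitals, for 3 genes. These are the gene that was higher, the receptor with the lowest fold change and the receptor whose interval under TMM held 1. They lie at chr3:137340828-137341127 (plus strand), chr11:49609429-49609728 (plus strand) and chr5:147725962-147726261 (minus strand).
Emcn: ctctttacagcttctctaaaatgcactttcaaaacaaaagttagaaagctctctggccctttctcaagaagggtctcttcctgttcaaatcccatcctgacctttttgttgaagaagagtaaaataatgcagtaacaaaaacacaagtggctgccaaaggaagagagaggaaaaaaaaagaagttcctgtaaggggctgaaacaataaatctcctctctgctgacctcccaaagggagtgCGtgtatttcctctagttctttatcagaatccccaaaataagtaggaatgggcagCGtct
Flt4: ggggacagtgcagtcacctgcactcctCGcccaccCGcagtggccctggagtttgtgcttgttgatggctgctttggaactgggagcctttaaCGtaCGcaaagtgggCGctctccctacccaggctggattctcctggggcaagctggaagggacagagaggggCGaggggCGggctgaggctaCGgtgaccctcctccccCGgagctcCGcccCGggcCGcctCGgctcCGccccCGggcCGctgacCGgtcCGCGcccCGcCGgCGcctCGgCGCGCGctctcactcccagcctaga
Flt1: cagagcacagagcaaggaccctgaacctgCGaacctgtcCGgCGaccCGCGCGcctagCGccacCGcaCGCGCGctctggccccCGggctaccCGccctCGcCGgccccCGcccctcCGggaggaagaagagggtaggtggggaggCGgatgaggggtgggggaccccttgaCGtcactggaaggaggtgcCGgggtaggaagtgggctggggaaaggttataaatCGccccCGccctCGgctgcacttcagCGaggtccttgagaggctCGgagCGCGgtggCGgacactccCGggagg

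*Emcn* had 2 CpG in its window, *Flt4* 26 and *Flt1* 29, and the median of all 32851 windows was 7. *Kdr* had 19, *Tie1* 7, *Eng* 6 and *Tek* 3, and the windows of *Erg* had 2, 4 and 16. Of the genes called lower, *Flt4* and *Kdr* lay above the median of all windows, *Tek* below it and *Eng* near it. *Flt1*, with the most CpG, was not called. A relation of CpG to fold change was not tested, and *Cdh5* and *Pecam1* had no window here. No methylation was measured in these libraries. The core of the binding sites of ETS factors, GGAA on either strand, was found in all 10 windows of these genes and in 96.0% of all windows. The longer form CCGGAAGT, which holds GGAA, was in none of the 10 and in 3.89% of all. The E-box CANNTG was in 70.0% of the 10 windows and in 72.3% of all, and the GATA motif AGATAA in 20.0% and 11.2%.

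The VEGF receptors differed from one another. *Kdr* (chromosome 5 of GRCm38, 75932827 to 75979072) had 1237 counts in wild type (86.8 CPM) and 117 in *tuft* (18.2 CPM), a fold change of 0.275 (0.226 to 0.333). *Flt4* (chromosome 11, 49609679 to 49652739) was counted 815 times in wild type (57.2 CPM) and 22 times in *tuft* (3.42 CPM). That is 0.0786-fold (0.0490 to 0.120). Both receptors were thus lower in *tuft*, *Flt4* by more than *Kdr*, as their intervals do not overlap. *Flt1* (chromosome 5, 147561604 to 147726438) had 319 counts in wild type (22.4 CPM) and 94 in *tuft* (14.6 CPM). Its fold change of 0.858 (0.674 to 1.08) was not distinguishable from 1 under TMM. When library totals alone were used for scaling, its log2 fold change was -0.62, against -0.22 (-0.57 to 0.12) under TMM. It was not called under either scaling. The counts do not separate the soluble from the membrane-bound form of FLT1.

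Ratios between receptors within a library do not depend on the scaling between libraries. There were 3.88 counts of *Kdr* for each count of *Flt1* in wild type (3.43 to 4.40) and 1.24 in *tuft* (0.941 to 1.65). For *Flt4* over *Flt1* the ratio was 2.55 in wild type (2.24 to 2.92) and 0.234 in *tuft* (0.140 to 0.375). The order of *Flt1* and *Flt4* was therefore turned around: *Flt4* had more counts than *Flt1* in wild type and fewer in *tuft*. No stretch of 50 bases of the longest coding transcripts of *Kdr*, *Flt1* and *Flt4* was found in the coding transcript of any other gene, so that reads of that length or longer are not shared within the family.

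The angiopoietin receptors kept their ratio within counting error, with 0.415 counts of *Tek* for each count of *Tie1* in wild type (0.358 to 0.480) and 0.333 in *tuft* (0.226 to 0.483). *Tek* (chromosome 4, 94739086 to 94874976) had 262 counts in wild type (18.4 CPM) and 39 in *tuft* (6.06 CPM), a fold change of 0.433 (0.301 to 0.608). *Tie1* (chromosome 4, 118471191 to 118489849) had 631 counts in wild type (44.3 CPM) and 117 in *tuft* (18.2 CPM), a fold change of 0.540 (0.439 to 0.659). The interval of *Tie1* left out 1, but the fold did not reach 2-fold under TMM. When library totals alone were used for scaling, its log2 fold change was -1.28 and it was called lower. *Tek* stands just past the threshold and *Tie1* just before it, and their intervals overlap.

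*Eng* (chromosome 2, 32646595 to 32682669) had 920 counts in wild type (64.6 CPM) and 146 in *tuft* (22.7 CPM), a fold change of 0.462 (0.385 to 0.551). It overlaps *Fpgs*, which encodes an enzyme of folate metabolism and had 1067 and 150 counts. The longest coding transcript of *Eng* shares 12 of its 3523 stretches of 50 bases with *Fpgs*, and whether reads were counted by strand is not given in the sources used here. The part of *Fpgs* in the value of *Eng* was not tested. Summed over the receptors, 4184 counts in wild type stood against 535 in *tuft*, a fold change of 0.372 (0.340 to 0.408).

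**Figure D2:**
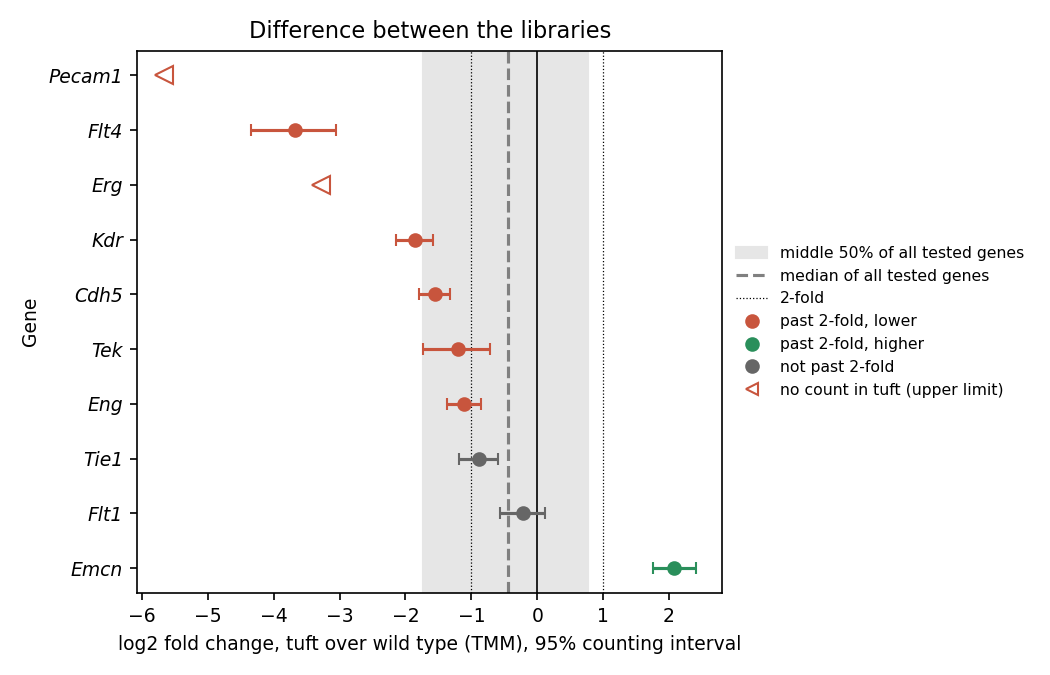
Log2 fold change of each gene, *tuft* over wild type after TMM, with its 95% counting interval, ordered by fold change, beside the middle 50% (-1.73 to 0.78) and the median (-0.45) of all 13979 tested genes. *Pecam1*, *Flt4*, *Erg* and *Kdr* lie below the middle 50%, *Emcn* lies above it at 2.08, and the open triangles mark upper limits for genes without a count in *tuft*.

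The junction and surface genes held the extremes in both directions. *Pecam1* (chromosome 11, 106654213 to 106715281) had 443 counts in wild type (31.1 CPM) and none in *tuft*, where 152 counts would have given a fold change of 1. It was 50.7-fold lower with 3 counts taken for *tuft*, and at least 41.1-fold lower by its counting interval. Few genes of that level lacked counts: 67 (1.68%) of the 3983 tested genes with 30 to 100 CPM in wild type. *Cdh5* (chromosome 8, 104101613 to 104144504) had the most counts of the 10 genes in wild type, 1376 (96.5 CPM), and 161 in *tuft* (25.0 CPM), a fold change of 0.341 (0.288 to 0.401). The adherens junction gene was thus detected in *tuft* while *Pecam1* was not.

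*Emcn* (chromosome 3, 137341062 to 137431069) had 136 counts in wild type (9.54 CPM) and 197 in *tuft* (30.6 CPM), more reads in the library with fewer counts. Its fold change was 4.22 (3.37 to 5.29), and it was higher under every scaling tried, with log2 fold changes from 1.67 to 2.12. There were 0.0988 counts of *Emcn* for each count of *Cdh5* in wild type (0.0823 to 0.118) and 1.22 in *tuft* (0.989 to 1.52). The window around its start, printed above, held few CpG: 14.1% of all windows held fewer. *Emcn* overlaps a predicted gene, *Gm38650*, which has no row in the count tables, and *Kdr*, *Flt1* and *Cdh5* likewise overlap 1 such predicted gene each (*Gm32727*, *Gm35383* and *Gm29682*). No stretch of 50 bases of *Emcn* occurred in another coding transcript.

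*Erg* (chromosome 16, 95359169 to 95586600) had 85 counts in wild type (5.96 CPM), the lowest level of the 10 genes, and none in *tuft*. It was 9.73-fold lower with 3 counts taken for *tuft*, and at least 7.74-fold lower by its counting interval. At this level an absence of counts was common, as 733 (35.0%) of the 2095 tested genes with 3 to 10 CPM in wild type had none in *tuft*. *Hhex*, *Prkca*, *Klf1*, *Gata1*, *Thbd*, *Epas1* and *Myh7*, all without a count in *tuft* and described below, lie in this range too. *Fli1*, the closest relative of *Erg* among the ETS factors, went the other way, with 268 counts in wild type and 310 in *tuft*, 3.37-fold higher (2.85 to 3.98).

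The make-up of the endothelial counts differed between the libraries. *Emcn* held 2.19% of the counts of the 10 genes in wild type (1.84 to 2.58) and 22.1% in *tuft* (19.4 to 24.9). *Flt4* held 13.1% in wild type and 2.46% in *tuft* (1.55 to 3.71), and *Kdr* 19.9% (18.9 to 20.9) and 13.1% (11.0 to 15.5). *Flt1* had the larger share in *tuft*, 10.5% (8.59 to 12.7) against 5.13% (4.59 to 5.70). For *Tek* (4.21% and 4.37%) and *Eng* (14.8% and 16.3%) the intervals of the libraries overlapped.

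**Figure D3:**
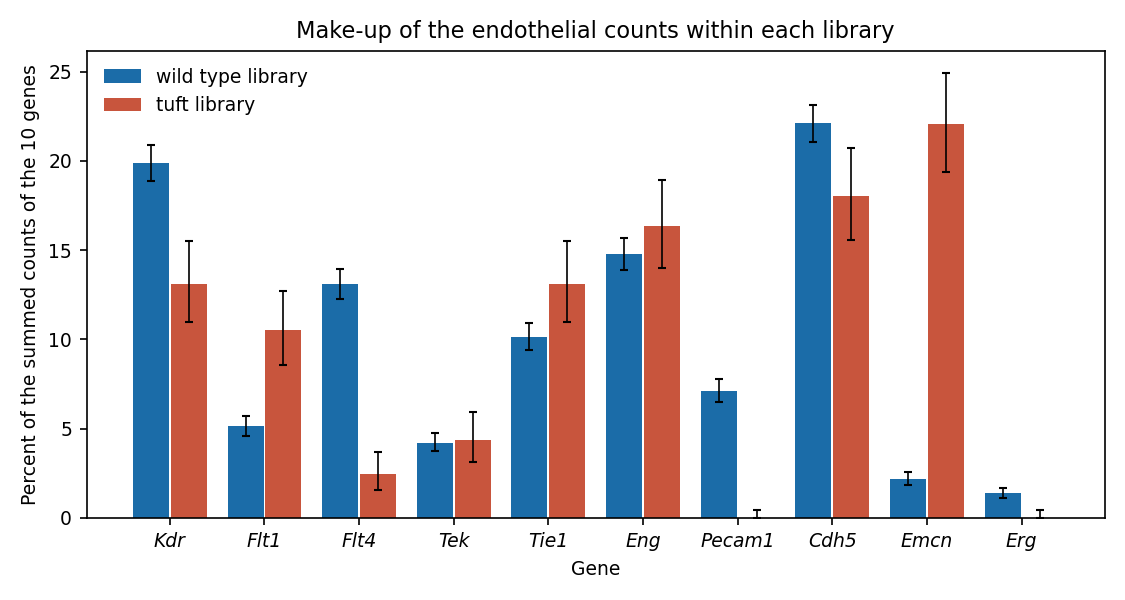
Percent of the summed counts of the 10 genes (6224 in wild type, 893 in *tuft*) that each gene held, with 95% Clopper-Pearson intervals. The bars of *Emcn* (2.19% and 22.1%) and *Flt4* (13.1% and 2.46%) differ in opposite directions.

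Levels of different genes were compared per kilobase of the longest coding transcript, since a longer transcript gives more reads. In wild type, *Cdh5* was the highest, at 24.2 CPM per kilobase, followed by *Eng* (18.1), *Kdr* (14.7) and *Tie1* (10.8). *Flt4* (9.14) and *Pecam1* (9.03) followed, with overlapping counting intervals, and then *Tek* (3.95), *Emcn* (3.69) and *Flt1* (3.25), of which each neighboring pair overlapped. *Erg* was the lowest at 1.78. In *tuft*, *Emcn* was the highest, at 11.8 CPM per kilobase, and *Eng* (6.35) and *Cdh5* (6.28) were next and not distinguishable. *Tie1* (4.45), *Kdr* (3.07), *Flt1* (2.12) and *Tek* (1.30) followed, and each neighboring pair of these 4 had overlapping intervals. *Flt4*, at 0.547 CPM per kilobase, was below all of them, and *Pecam1* and *Erg* had no count.

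The ligands of these receptors differed in both directions. Of 8 VEGF and angiopoietin genes, 7 were tested, 2 were called lower, 2 higher, and the median log2 fold change was -0.55. *Vegfa*, the main ligand of KDR and FLT1, had 1772 counts in wild type and 416 in *tuft*, 0.684-fold (0.613 to 0.761), and was not called. *Vegfb*, a ligand of FLT1, was higher, with 642 and 1170 counts, 5.31-fold (4.82 to 5.85), whereas *Pgf*, which also binds FLT1, was lower, with 95 and 8 counts. A ligand of FLT4, *Vegfc*, had 219 and 77 counts, and its fold change of 1.02 (0.779 to 1.33) was not distinguishable from 1. *Figf*, of the same list, had 13 counts in wild type and none in *tuft* and was not called. For TEK, the activating ligand *Angpt1* was higher, 5.49-fold (3.99 to 7.62) from 61 counts in wild type and 115 in *tuft*, and *Angpt2*, which can oppose it, was lower, 0.275-fold (0.0857 to 0.682) from 53 and 5 counts.

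Of 12 co-receptors and partner receptors, 2 were lower, 3 higher and 7 not called, with a median log2 fold change of 0.06. With library totals 5 were lower and 3 higher. *Acvrl1*, the signaling receptor that works with endoglin, had 179 counts in wild type and 7 in *tuft*, 0.114-fold (0.0451 to 0.240). *Plxnd1*, a semaphorin receptor of vessels, was lower too (2509 and 302 counts, 0.350-fold). Those that were higher were *Calcrl*, the adrenomedullin receptor (73 and 241 counts, 9.61-fold), *Tgfbr2* (2.97-fold) and *Bmpr2* (2.99-fold). The VEGF co-receptors were not called, *Nrp1* at 0.642-fold (0.489 to 0.833) and *Nrp2* at 1.95-fold (1.81 to 2.09). *Ptprb*, the phosphatase that acts on TEK, had 72 and 38 counts, 1.54-fold (1.01 to 2.31).

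Among 12 genes of VEGF signal transduction, 2 were lower, 4 higher and 6 not called. With library totals 3 were lower and 2 higher, and by NOISeq-sim 2 and 2. *Plcg1*, the phospholipase that binds activated KDR, had 3349 counts in wild type and 5437 in *tuft*, 4.73-fold (4.53 to 4.94), and is expressed far beyond endothelium. *Nos3*, the endothelial nitric oxide synthase, was lower (376 and 47 counts, 0.364-fold, 0.263 to 0.494), as was *Prkca*, with 85 counts and none. Of 5 hypoxia genes upstream of *Vegfa*, *Epas1* (142 counts and none, at most 0.0766-fold) and *Egln1* (0.292-fold) were called lower. *Hif1a* (0.534-fold) and *Arnt* (0.549-fold) were not called. With library totals, or at 1.5-fold, 4 of the 5 were lower, these included.

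Of 18 further surface and junction genes of endothelium, 7 were lower, 6 higher and 5 not called, with a median log2 fold change of -0.06. A count of 7 in 18 is close to the 37.3% of all tested genes that were lower. With library totals 7 were lower and 4 higher. The sialomucins *Podxl* (7942 and 914 counts, 0.335-fold, 0.313 to 0.359) and *Cd34* (1158 and 104 counts, 0.262-fold) were lower, and so was the secreted vessel protein *Egfl7* (0.437-fold). *Thbd*, thrombomodulin, had 135 counts in wild type and none in *tuft*. *Gpr116* (300 and 7 counts, 0.0679-fold), *Mmrn2* (287 and 30 counts, 0.304-fold) and *Eltd1* (23 counts and none) were lower too. *Vwf*, which encodes the clotting protein of endothelial granules, was 6.14-fold higher (4.28 to 8.92, from 46 and 97 counts), and *Esam*, *Cd93*, *Clec14a*, *Ecscr* and *She* were higher as well. *Plvap*, of the diaphragms of fenestrae, was not called (0.844-fold). The summed level of the 18 genes was 1073 CPM in wild type and 536 CPM in *tuft*, of which *Podxl*, also made by epithelia, held 557 and 142 CPM.

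Endothelial transcription factors were spread evenly under TMM, with 5 of 17 lower, 5 higher and 7 not called and a median log2 fold change of -0.21. Scaling by library totals gave 8 lower and 4 higher. Lower were *Sox18* (263 and 22 counts, 0.244-fold, 0.150 to 0.377), *Sox7* (0.186-fold), *Elk3* (0.384-fold), *Etv2* and *Hhex*, the latter pair without a count in *tuft* from 39 and 62 in wild type. At 1 to 3 CPM in wild type, where *Etv2* lies (2.74 CPM), 63.1% of tested genes had no count in *tuft*. Higher were *Klf2*, a factor induced by blood flow (41 and 154 counts, 10.9-fold, 7.71 to 15.8), *Fli1*, *Tal1* (2.37-fold), *Mef2c* (3.70-fold) and *Foxc1* (2.77-fold). Of 12 tested arterial genes, 5 were lower and 2 higher (6 and 1 with library totals). *Notch4* had 237 counts in wild type and 2 in *tuft*, 0.0246-fold (0.00296 to 0.0898), the Notch ligand gene *Dll4* had 169 and none, and *Efnb2*, the arterial ephrin, was 3.38-fold higher (3.12 to 3.66). At 10 to 30 CPM in wild type, where *Dll4* (11.9 CPM) and *Tagln* (21.2 CPM, described below) lie, 9.89% of tested genes had no count in *tuft*. Of 6 venous and lymphatic genes, 3 were lower, among them *Ephb4*, the venous receptor of ephrin-B2 (3039 and 255 counts, 0.244-fold), and none was higher under TMM (4 lower and 0 higher with library totals, 3 and 1 with the size factors of DESeq2). This list shares *Nrp2* and *Aplnr* with that of the co-receptors.

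**Figure D4:**
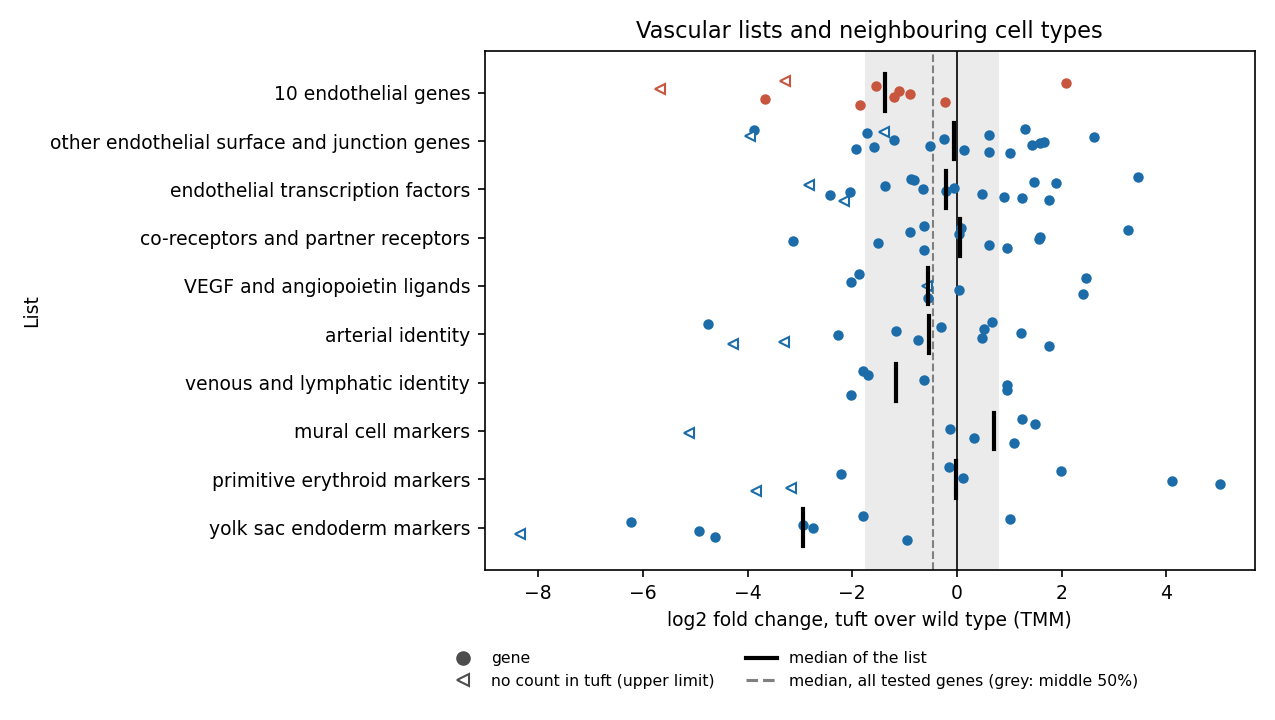
Log2 fold change of each tested gene, *tuft* over wild type after TMM, for the 10 endothelial genes and 9 other lists, with the median of each list and the middle 50% (-1.73 to 0.78) of all tested genes. The median of the 10 genes (-1.38) lies below those of the other surface and junction genes (-0.06), the endothelial transcription factors (-0.21) and the arterial genes (-0.53). That of the venous and lymphatic list (-1.16) is nearer to it, and the yolk sac list (-2.93) is the lowest.

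Markers of neighboring cell types also differed between the libraries. Of 9 yolk sac endoderm markers, 7 were lower, 1 was higher (*Amn*, 2.01-fold) and *Afp* was not called (0.517-fold), whereas library totals gave 8 lower and 0 higher, and their summed level was 2116 CPM in wild type and 284 CPM in *tuft*. Among them, the apolipoprotein gene *Apoa4* had 2856 counts in wild type and none in *tuft*, and *Rbp4*, of retinol transport, had 4782 and 22. The yolk sac holds endothelium of its own, and the part of yolk sac tissue in the values of the 10 genes was not tested. Of 8 primitive erythroid markers, 3 were lower and 3 higher, and their summed level was 3212 CPM in wild type and 35529 CPM in *tuft*, nearly all of it from globins. Of the globins, *Hbb-y* (32.4-fold) and *Hba-x* (17.1-fold) were higher, and *Hbb-bh1* (1083 and 887 CPM, 1.08-fold) was not called. *Gata1* and *Klf1* had no count in *tuft*. Of 8 mural cell markers, 6 were tested, 1 was lower (*Tagln*, 302 counts and none) and 3 higher (1 and 1 with library totals). The 9 markers of endocardium and heart muscle summed to 29.0 CPM and 45.5 CPM. Of these, the endocardial genes *Nfatc1* (4.03-fold) and *Npr3* (213 and 161 counts) were higher in *tuft* under TMM (1 of them with library totals), and the muscle genes were low, with *Myh7* at 51 counts in wild type and 6 of the 7 at 0 in *tuft*. The 5 leukocyte markers, of which *Csf1r* passed the minimum of 10 counts, summed to 1.96 CPM in wild type and 0 in *tuft*.

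NOISeq-sim, the program that the study used, was re-implemented, and its calls need not be those of the original program. By this version (probability above 0.95), 5 of the 10 genes were lower (*Kdr*, *Flt4*, *Pecam1*, *Cdh5* and *Erg*) and *Emcn* was higher, against 19.7% lower and 12.4% higher among the 17140 genes with a count. *Tek* and *Eng* were not called by it.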

How the data were processed

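Single-end Ion Proton reads of poly-A selected RNA were trimmed with PRINSEQ, aligned by the authors to mm10 with TopHat2 2.0.14 (Bowtie2 2.2.5) and assigned to genes by htseq-count. Raw counts for 24062 gene symbols were deposited. How htseq-count was set (release, overlap rule, strand) and which gene models it used is not given in the sources used here. Its summary lines were kept out of totals. Alignments that were not unique made up 51.4% of the entries in wild type and 59.2% in *tuft*.

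TMM factors came from edgeR 4.0.16 in R 4.3.3, and intervals from scipy 1.17.1 in Python 3.11.15. With 1 column of counts per genotype, no test was run and no p-value is given. Counts below 3 were set to 3 in log2 fold changes. The alternatives were 4 other scalings (among them size factors of DESeq2 1.42.0), other minimum counts, folds of 1.5 and 4, 0.5 in place of a count of 0, and a re-implementation of the study's NOISeq-sim, whose simulated noise holds no difference between embryos.

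The members, the 16 gene lists and the comparisons were chosen with earlier results of these data known. All members are named, with up to 6 genes of each list (the extreme fold changes and the most counts) and the direct ligands and partners of the members. Any other gene was named after its values were seen. Gene positions and start-site windows are those of RefSeq for GRCm38.p6, the build of mm10, and transcript lengths are from GENCODE vM1. Windows of *Cdh5* and *Pecam1* were not used here.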

Additional observations from a re-analysis of the deposited data

How the results depend on the processing

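The directions of the 8 called genes were kept under every alternative, and *Emcn* was the 1 gene called higher in each of them. Against 7 genes called lower, library totals, library totals without hemoglobin and *Rn45s*, and a 1.5-fold threshold each gave 8 (with *Tie1*), NOISeq-sim gave 5 and a 4-fold threshold 3 (*Flt4*, *Pecam1* and *Erg*). At 1.5-fold, 6371 of all tested genes were lower and 3942 higher. Library totals without hemoglobin and *Rn45s* gave 6406 lower and 2192 higher. At 4-fold, 3017 of all tested genes were lower (5215 at 2-fold) and 1286 higher (2966), and in the 16 lists 27 genes were lower (44) and 11 higher (36). NOISeq-sim, as re-implemented, called 3381 genes lower. The balance of lower and higher calls in the lists depends on the scaling, with 59 lower and 26 higher by library totals. With library totals the median log2 fold change of the 10 genes was -1.77 (-1.78 without hemoglobin and *Rn45s*) instead of -1.38, and that of their summed counts -1.65 (-1.66) instead of -1.26. A change of scaling adds the same constant to every log2 fold change. The distance of the median of the 10 genes to that of all genes, -0.93, is therefore equal under all 5 scalings by construction and tests nothing. Under the other scalings, no log2 fold change of the 10 genes, of their median or of their summed counts changed sign. Counts of calls were not checked for a reversal. No paired analysis was possible because there is 1 column of counts per genotype and the columns carry no replicate number. For the same reason no replicate could be left out. With 6433067 counts in *tuft*, a gene needs 0.466 CPM there to exceed the limit that a count of 0 allows, and intervals cover counting error only, not the difference between embryos.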
